A study of Macaca mulatta with 2 samples.

Results

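Cycling double positive (DP) T cells were sought among CD4+CD8+ T cells from the blood of 1 healthy, untreated male rhesus monkey aged 6 years. A cell was counted as cycling when it held at least 2 unique molecular identifiers (UMIs, 1 per captured transcript) of MKI67, TOP2A and TYMS together and at least 1 UMI of CD3D, CD3E or CD3G. The rule found 65 of 7601 kept cells, a share of 0.855% (95% exact binomial interval 0.661 to 1.09%). The cells had been enriched from fresh blood mononuclear cells with releasable CD4 magnetic beads and then with CD8 beads, and were labelled with DNA-tagged CD4 and CD8 antibodies before droplet 5′ RNA sequencing. Gene counts and tag counts came from the same droplets, and all 7923 deposited barcodes held both. There was no other animal, no treatment and no sort of CD4 or CD8 single positive cells, so no difference was tested over samples, and every interval covers counting error only.

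A T cell that divides first licenses its replication origins with the MCM helicase, then copies its DNA with a supply of nucleotides and new histones, and finally condenses and separates its chromosomes in mitosis. Genes of the first steps are switched on by E2F factors, and genes of mitosis are mostly held back through CHR elements (cell cycle genes homology regions) until late in the cycle. Most T cells in blood rest outside the cycle, and Ki-67, the product of MKI67, is the usual mark of the few that do not. DP T cells in blood are mature cells, unlike the dividing DP thymocytes from which T cells develop, and in macaques they include many memory and cytotoxic cells.

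The comparison group was drawn from 7125 kept CD3+ cells with no UMI of the 3 genes. Depth was matched, because the cells that met the rule were mostly deep ones. Why they were deep was not tested, and matching on UMIs also removes any depth that belongs to cycling cells. Of the 1864 CD3+ cells with the fewest UMIs (509 to 2981) 1 met the rule (0.0536%), against 52 of the 1860 with the most (4709 to 23519 UMIs, 2.80%, interval 2.09 to 3.65%). The cycling cells had a median of 7045 UMIs and 2310 genes. The 325 matched cells, 5 for each cycling cell, had a median of 7038 UMIs and 2008 genes, while all CD3+ cells without the 3 genes had 3616 UMIs and 1277 genes. Depth was thus alike in the 2 groups, and 90.2% of the matched cells lay within 5% of the UMIs of their partner. Summed UMIs were 522539 in the cycling and 2576128 in the matched cells.

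The 3 genes that chose the cells are described here and support nothing. MKI67, on chromosome 9 (128522685 to 128554144, minus strand, build Mmul_10), coats mitotic chromosomes and gave 159 UMIs in 57 of the 65 cells. TYMS, thymidylate synthase, lies on chromosome 18 (61963940 to 61976091, plus strand) and gave 78 UMIs in 30 cells. TOP2A, the topoisomerase that untangles replicated DNA, lies on chromosome 16 (51540255 to 51571945, minus strand) and gave 65 UMIs in 24 cells. MKI67 alone placed 24 cells in the group, all 3 genes were seen in 12, and at least 2 of them in 34. The threshold was met exactly by 28 cells with 2 UMIs, while 18 cells held 5 or more and the highest cell held 41. Just outside it lay 255 CD3+ cells with 1 UMI, 3.43% of the kept CD3+ cells. In the cells just inside it, 105 further cell cycle genes, fixed as 3 lists (replication licensing, fork and nucleotide supply, and mitosis), summed to 2480 CPM (UMIs of a gene or list scaled to 1000000 UMIs), against 1536 CPM in the cells just outside.

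The name was checked with those 3 lists, which leave out the 3 genes. Summed over the lists, the cycling cells held 6907 CPM (counting interval 6683 to 7136) and the matched cells 1165 CPM (1124 to 1208). All CD3+ cells without the 3 genes held 1180 CPM, so the matched level was not particular to deep cells. Cell by cell, the lists made up a median of 42.1 per 10000 UMIs in the cycling cells (lowest 3.61, highest 281) and 10.98 in the matched cells (lowest 0, highest 40.0). The groups overlapped: 34 of the 65 cycling cells lay above the highest matched cell, and 43 (66.2%) lay above the 95th percentile of the matched cells, 22.2 per 10000. The level went with the number of UMIs that chose the cell, with a median of 18.1 per 10000 at 2 UMIs, 65.5 at 3 or 4, and 107 at 5 or more.

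**Figure D1:**
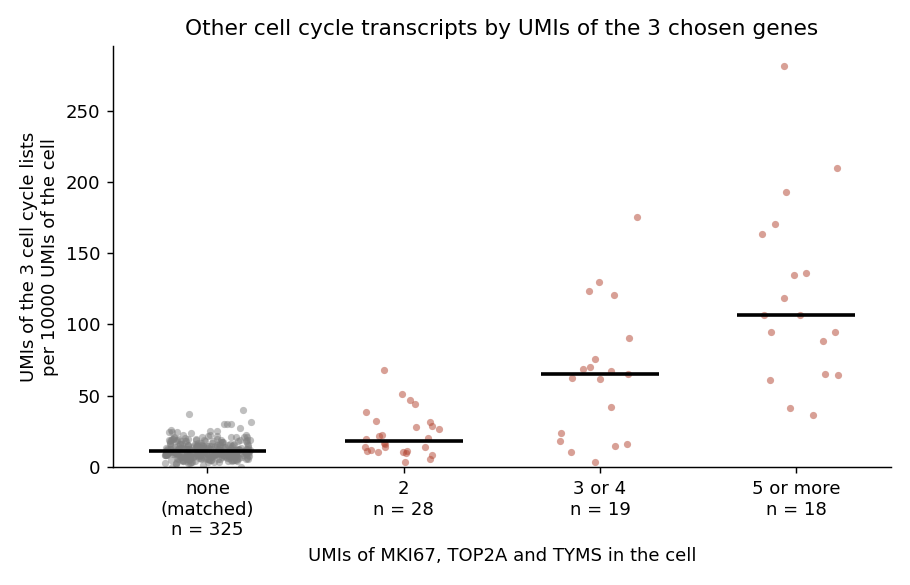
UMIs of the 3 cell cycle lists per 10000 UMIs of each cell (linear axis), for 325 matched cells and for the 65 cycling cells split by their UMIs of MKI67, TOP2A and TYMS. Points are cells and bars are medians, which are 10.98, 18.1, 65.5 and 107 from left to right, and many cells with 2 UMIs lie among the matched cells.

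The markers therefore bore out the name for most but not all cells. Of the 34 cells with at least 2 of the 3 genes, 29 (85.3%) exceeded that 95th percentile. Of the 24 cells chosen by MKI67 alone, 10 (41.7%) did, and their summed level was 2579 CPM (interval 2338 to 2837), against 9415 CPM (9080 to 9758) in the cells with at least 2 genes. The other 14 MKI67-only cells lay at or below that percentile. Most of the 10 also lay below the highest matched cell (40.0 per 10000), within the range of cells without the 3 genes.

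S phase and mitosis levels went together across the cycling cells. The 2 S phase lists (licensing, and fork and nucleotide supply) summed to 4036 CPM in cycling and 582 CPM in matched cells, and the mitosis list to 2871 and 583 CPM. Across the 65 cells the 2 levels had a Spearman correlation of 0.68, against 0.12 across the 325 matched cells. This is a description over cells of 1 library, which share their depth as the denominator. Both levels also rose with the UMIs of the 3 chosen genes. At 2, at 3 or 4, and at 5 or more UMIs, S phase summed to 1377, 4622 and 6660 CPM and mitosis to 1103, 2604 and 5044 CPM. The correlation over all 65 cells therefore cannot show how far the phases overlap within dividing cells. S phase UMIs outnumbered mitosis UMIs in 42 cells, the reverse held in 20, and 3 were equal. The extremes were clear: 1 MKI67-only cell with 4627 UMIs held 53 mitosis and 4 S phase UMIs, and the cell with the highest cell cycle share held 52 S phase and 48 mitosis UMIs among 3556.

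**Figure D2:**
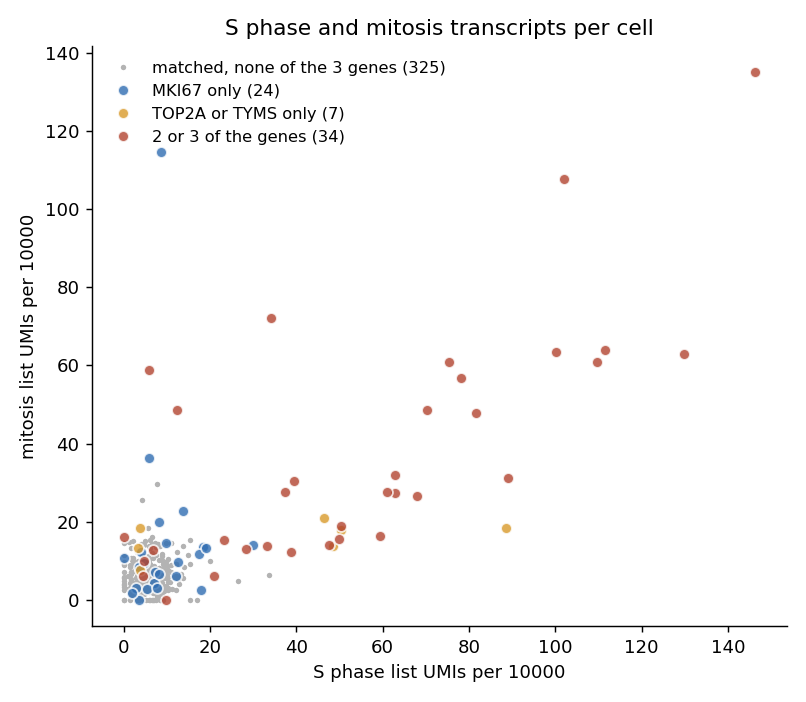
S phase list UMIs (horizontal) against mitosis list UMIs (vertical), both per 10000 UMIs of the cell, for 325 matched cells (grey) and the 65 cycling cells coloured by which of the 3 genes they held. The 34 cells with 2 or 3 of the genes spread along both axes, and most of the 24 MKI67-only cells lie within the grey cloud.

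Across the transcriptome, 9336 genes had at least 10 UMIs in both groups together. Of these, 579 (6.2%) were 2-fold or more higher in the cycling cells and 188 (2.01%) 2-fold or more lower, on the scale log2 of CPM plus 10, and the median log2 ratio over all of them was 0.11. Of the 105 listed cell cycle genes 104 were found by name, 91 reached 10 UMIs, 80 of those were 2-fold or more higher and none was lower. These lists were chosen as cycle genes and go with the 3 genes of the rule in any dividing cell, so their count checks the group and is no further finding.

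Replication licensing genes stood highest as a list, with 16 of 18 past 2-fold and a median log2 ratio of 2.30. MCM3, MCM5, MCM4 and MCM7, subunits of the replicative helicase, had its largest log2 ratios of CPM plus 10. On plain CPM ratios CDC6 and CDC45, which load and start the helicase, stood higher (93.7 and 54.2), on 1 and 2 UMIs in the matched cells. MCM3 held 134 CPM in the cycling and 4.66 CPM in the matched cells, a 28.8-fold difference (counting interval 15.5 to 58.3), and was seen in 49.2% and 3.38% of cells. MCM5 held 155 and 7.38 CPM (21.0-fold, 12.6 to 36.7), and MCM7 184 and 15.1 CPM (12.1-fold, 8.28 to 18.1). CLSPN, which guards stalled forks, was seen in 23.1% of cycling cells and in none of the matched cells. DBF4, an activator of the origin-firing kinase, was within 2-fold at 49.8 and 31.1 CPM.

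Promoter letters were not used by the rule. In RefSeq's annotation of Mmul_10, the bases from 250 before to 50 after the annotated start of 20773 protein-coding genes were searched on both strands for TTTGGCGC, TTTGCCGC, TTTCGCGC or TTTCCCGC, common forms of the E2F site. Such letters stood in 8 of 18 licensing promoters (44.4%), those of MCM3, MCM4, MCM5, MCM6, CDT1, GINS1, GINS2 and CLSPN, in 5 of 29 fork and nucleotide promoters (17.2%), in 4 of 56 mitosis promoters (7.14%), and in 3.54% of all promoters. The CHR forms TTTGAA or TTTAAA stood in 36 of 56 mitosis promoters (64.3%), in 2 of 18 licensing promoters (11.1%) and in 23.5% of all promoters. No promoter of the 24 cytotoxic genes found by name held the E2F letters, and 4 (16.7%) held the CHR letters. A match describes the sequence and not a bound site, and a window rests on the annotated start. The 250 bases before the start are shown for 2 licensing genes with the E2F letters in capitals, and for the mitosis gene CDK1 and for MKI67 and TOP2A with the CHR letters in capitals, because they show the letters in licensing genes, in a mitosis gene, and in a pair of the genes that chose the cells, whose values support nothing. They are MCM3 (chr4:117252136-117252385, plus strand), MCM5 (chr10:16147209-16147458, minus), CDK1 (chr9:77210912-77211161, minus), MKI67 (chr9:128554145-128554394, minus) and TOP2A (chr16:51571946-51572195, minus), each written 5′ to 3′ on the strand of its gene.
MCM3: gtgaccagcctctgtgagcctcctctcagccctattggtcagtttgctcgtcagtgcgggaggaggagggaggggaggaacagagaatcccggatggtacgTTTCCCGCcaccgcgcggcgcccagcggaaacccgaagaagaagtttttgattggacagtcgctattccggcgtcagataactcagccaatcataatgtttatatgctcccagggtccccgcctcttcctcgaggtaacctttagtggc
MCM5: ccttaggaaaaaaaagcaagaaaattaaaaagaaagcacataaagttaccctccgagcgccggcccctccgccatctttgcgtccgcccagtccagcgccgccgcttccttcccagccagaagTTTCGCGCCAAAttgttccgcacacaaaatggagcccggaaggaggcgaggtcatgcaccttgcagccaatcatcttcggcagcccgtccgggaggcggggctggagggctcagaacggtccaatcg
CDK1: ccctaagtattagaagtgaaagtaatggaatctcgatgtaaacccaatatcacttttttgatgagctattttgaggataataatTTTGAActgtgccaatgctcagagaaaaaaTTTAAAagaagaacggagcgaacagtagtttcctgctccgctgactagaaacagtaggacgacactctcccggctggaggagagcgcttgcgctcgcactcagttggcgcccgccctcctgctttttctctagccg
MKI67: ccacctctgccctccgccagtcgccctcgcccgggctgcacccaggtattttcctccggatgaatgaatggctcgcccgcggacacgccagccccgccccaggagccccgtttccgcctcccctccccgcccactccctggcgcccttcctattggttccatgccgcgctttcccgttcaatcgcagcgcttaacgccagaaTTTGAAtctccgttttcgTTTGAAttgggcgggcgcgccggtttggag
TOP2A: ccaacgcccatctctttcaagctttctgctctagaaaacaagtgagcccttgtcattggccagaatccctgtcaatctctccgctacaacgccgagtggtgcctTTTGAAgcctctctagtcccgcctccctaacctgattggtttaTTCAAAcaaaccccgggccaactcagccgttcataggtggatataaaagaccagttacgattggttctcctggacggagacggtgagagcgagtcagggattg
In MCM5 the letters TTTCGCGC and GCGCCAAA overlap, 127 and 123 bases before the start. MKI67 carries TTTGAA at 48 and at 30 bases before the start.

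Some genes of the fork and of nucleotide supply had at most 2 UMIs in the matched cells. RRM2, the small subunit of ribonucleotide reductase, gave 172 UMIs in 26 of the 65 cells and 1 UMI in the 325 matched cells, or 329 against 0.388 CPM (ratio 848, counting interval 150 to 33685). PCLAF, a partner of the sliding clamp, held 186 and 0.776 CPM from 97 and 2 UMIs (ratio 239, interval 64.4 to 2002). TK1, thymidine kinase, held 95.7 CPM in 24.6% of cycling cells and had no UMI in the matched cells. The counting interval of its ratio starts at 64.4-fold. Setting the matched cells at the floor of 3 UMIs over the group gives 82.2-fold. Genes that resting cells also use differed less. PCNA, the clamp itself, held 262 and 44.3 CPM (5.92-fold, 4.59 to 7.66), and DUT, which clears dUTP, 410 and 95.5 CPM (4.29-fold, 3.55 to 5.17). In all, 26 of 29 were past 2-fold with a median log2 ratio of 1.78, and POLD1, a subunit of polymerase delta, was not (30.6 and 21.7 CPM).

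Of the mitosis genes 38 of 44 were past 2-fold, with a median log2 ratio of 1.92. CCNA2, cyclin A2, held 103 and 1.16 CPM from 54 and 3 UMIs (ratio 88.7, interval 28.8 to 444), and 1 cell gave 33.3% of its UMIs. CDK1, the kinase that drives entry into mitosis, was seen in 35.4% of cycling and 0.923% of matched cells, at 82.3 and 1.16 CPM (ratio 70.7, 22.6 to 356). BIRC5, survivin, a subunit of the chromosomal passenger complex, held 76.5 and 0.388 CPM from 40 and 1 UMIs (ratio 197, 33.4 to 7981). PTTG1, securin, was more evenly spread, in 56.9% and 16.9% of cells at 203 and 30.7 CPM (6.61-fold, 4.90 to 8.97). CCNB2, cyclin B2, held 61.2 and 1.55 CPM from 32 and 4 UMIs, while CCNB1, cyclin B1, held 11.5 and 3.49 CPM from 6 and 9 UMIs. CDC25B, a phosphatase that activates CDK1, was abundant in both groups at 300.5 and 258 CPM (1.16-fold, 0.972 to 1.39).

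Among chromatin and tubulin genes 13 of 18 were past 2-fold. STMN1, stathmin, which destabilises microtubules, had the largest ratio, with 1585 CPM in the cycling and 48.9 CPM in the matched cells (32.4-fold, 26.8 to 39.4), seen in 73.8% and 28.0% of cells. TUBB, a beta tubulin, held 1428 and 216 CPM (6.60-fold, 5.91 to 7.38), HMGB2, a chromatin protein, 1053 and 178 CPM (5.92-fold, 5.22 to 6.72), and H2AFZ, the histone variant H2A.Z, 693 and 175 CPM (3.95-fold, 3.43 to 4.54). PTMA, a chromatin protein of most cells, was within 2-fold at 3919 and 2189.7 CPM. Outside the lists, the 10 genes with the largest ratios were 8 histone genes, KIF22 and TUBA1A. KIF22, a chromosome motor, held 113 and 12.4 CPM, and TUBA1A, an alpha tubulin, 2042 and 389 CPM.

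The histone signal came from few cells. Replication-dependent histone genes are transcribed in S phase, and their messages mostly lack the poly(A) tail that the library captures. Of 32 histone genes measured, 21 were past 2-fold. H3C13 gave 459 UMIs in 14 cycling cells and 3 in the matched cells, but 57.1% of them came from 1 cell, the one with 41 UMIs of the 3 chosen genes. A second cell, with 12 UMIs of the 3 genes, held 538 of the 1995 histone UMIs of the group (27.0%). The median was 6 histone UMIs per cycling and 3 per matched cell. H1-3, a linker histone, was the most widely seen of the 8, in 55.4% and 31.7% of cells at 588 and 76.5 CPM. These family members are near-identical, so reads may be split among them and the single gene values are uncertain.

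G1 cyclins and E2F factors had a lower median as a list than the replication genes. Of 14 measured, 4 were past 2-fold, and the median log2 ratio was 0.46. E2F2 held 40.2 and 1.16 CPM, E2F1 24.9 and 3.11 CPM, CCNE1, cyclin E1, 17.2 and 1.16 CPM, and TFDP1, the partner that E2F factors bind DNA with, 49.8 and 13.2 CPM. E2F2 was seen in 15.4% of the cycling cells, and 38.1% of its UMIs came from 1 cell. CCND3, a D cyclin, was within 2-fold at 220.1 and 173 CPM, and MYC, a transcription factor of growing cells, held 32.5 CPM in the cycling and 54.3 CPM in the matched cells.

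Quiescence and arrest genes leaned the other way, with a median log2 ratio of -0.69 over 18 genes, 3 of them 2-fold or more lower and 1 higher. Of all genes, 2.01% were lower and 6.2% higher. BTG2, an antiproliferative gene, held 121 and 287 CPM (ratio 0.420, 0.319 to 0.543), and IL7R, the interleukin-7 receptor that keeps resting T cells alive, 545 and 1137 CPM (0.480, 0.423 to 0.542). LEF1, a transcription factor of naive T cells, held 53.6 and 121 CPM (0.442, 0.289 to 0.652). TXNIP, which limits glucose uptake, stood just short at 759.8 and 1514 CPM. The single higher gene was CDKN2C, an inhibitor of CDK4 and CDK6 that is itself an E2F target, at 24.9 and 5.82 CPM. When cells with B cell transcripts, described below, were left out and the matched cells drawn anew, the log2 ratio of BTG2 was -0.14 in place of -1.19, that of LEF1 -0.92 and that of IL7R -1.17.

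**Figure D3:**
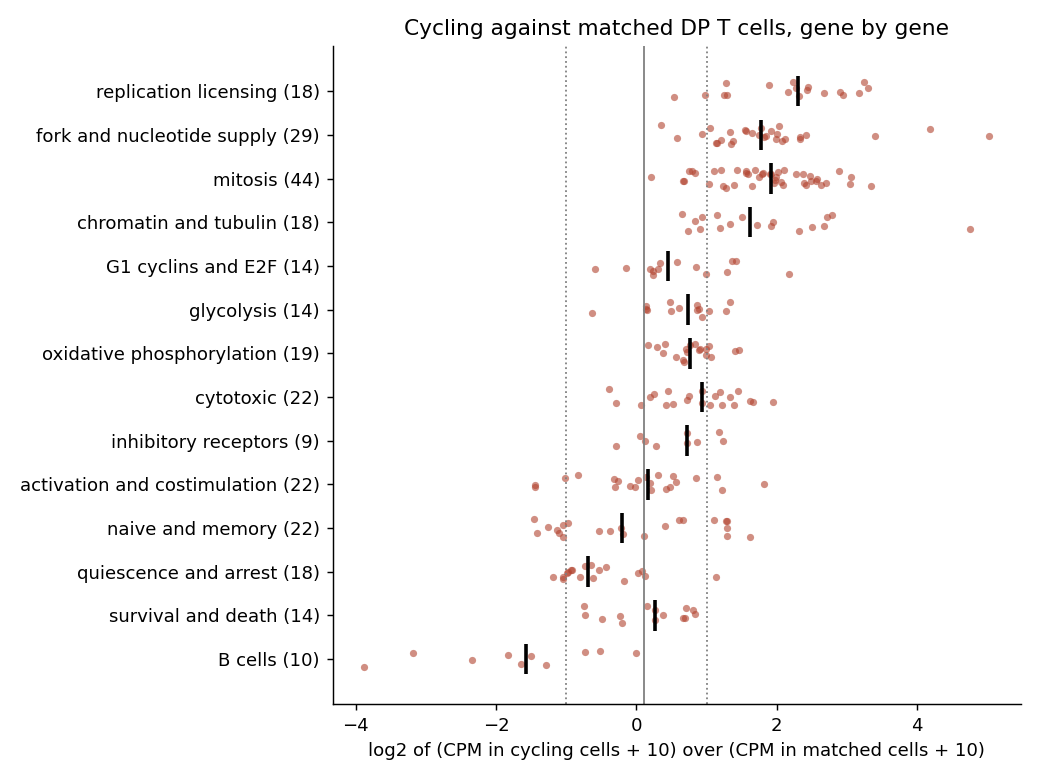
log2 ratio of CPM plus 10 in cycling over matched cells for each measured gene (points) of 14 gene lists, with the number of genes in brackets and the median as a black bar. The solid line is the median of all 9336 genes (0.11) and dotted lines mark 2-fold, with the 3 cell cycle lists and chromatin and tubulin genes centred past it, and quiescence, naive and memory, and B cell genes centred below 0.

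Energy genes were modestly higher, most of them within 2-fold. Glycolysis genes had a median log2 ratio of 0.74, with 3 of 14 past 2-fold. These were GAPDH, a glycolytic dehydrogenase (3230.4 and 1276 CPM, 2.53-fold, 2.39 to 2.69), LDHA, lactate dehydrogenase (344 and 136 CPM), and PGAM1, a mutase of the lower pathway (245 and 115 CPM). Genes of oxidative phosphorylation had a median of 0.76, with 4 of 19 past 2-fold, led by NDUFB3 of complex I (151 and 48.5 CPM). Survival and death genes had a median of 0.26. None of 14 was past 2-fold, beside 6.2% of all genes higher and 2.01% lower. BAX, a death effector, held 201 and 108 CPM, and MCL1, its opponent, 139.7 and 242 CPM.

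The cycling cells held more cytotoxic transcripts than their matched cells. Of 22 cytotoxic genes 10 were past 2-fold higher and none lower, with a median log2 ratio of 0.93. GZMB, granzyme B, held 1786 and 649.8 CPM (2.75-fold, 2.53 to 2.98) and was seen in 42 of 65 cycling cells, 64.6% (51.8 to 76.1%), against 38.8% (33.4 to 44.3%) of matched cells. In 87 kept cells with at least 3 UMIs of B or plasma cell genes and none of CD3 (called B cell transcript cells here), which should lack it, the share was 9.20% at a median of 4103 UMIs. Thinned to 2000 UMIs a cell, the shares were 61.5% and 32.3%. NKG7, a granule protein, held 1097 and 472 CPM, KLRD1, the NK receptor chain CD94, 163 and 34.9 CPM, GZMM, granzyme M, 211 and 59.4 CPM, and CX3CR1, the fractalkine receptor of effector cells, 115 and 30.7 CPM. CX3CR1 and GZMB were seen together in 40.0% and 15.1% of cells. Not all of the killing programme was higher: GZMK stood at 136 and 118 CPM, PRF1, perforin, at 65.1 and 46.2 CPM, and GNLY, granulysin, at 241 and 319 CPM (ratio 0.756, 0.621 to 0.913).

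The size of that difference depended on the comparison cells. The depth-matched cells held fewer cytotoxic transcripts than CD3+ cells at large, 2674 CPM for the list in the matched cells and 4481 CPM in all 7125 CD3+ cells without the 3 genes, beside 5582 CPM in the cycling cells. Against all 7125 the median log2 ratio was 0.40, and against cells matched on depth and on having a GZMB UMI or none it was 0.51. In these 2 comparisons the log2 ratio of NKG7 was 0.40 and 0.62, and that of CX3CR1 0.81 and 0.89, all within 2-fold. Among all kept CD3+ cells, 42 of the 3323 with a GZMB UMI met the rule, 1.26% (0.912 to 1.70%), and 23 of the 4122 without one, 0.558% (0.354 to 0.836%), at median depths of 3303 and 4035 UMIs.

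The cell cycle level among chosen cells is largely set by the rule and is given as a description. The 3 cell cycle lists summed to 6961 CPM (6666 to 7265) in the 42 cycling cells with a GZMB UMI and to 6833 CPM (6492 to 7186) in the 23 without one, but 1 cell gave 27.1% of the UMIs of the latter and without it their level was 5464 CPM. The medians over cells were 55.9 and 36.4 per 10000. The 23 cells held 109 CPM of CCR7, a lymph node homing receptor, against 33.2 CPM in the 42, and matched cells showed the same order, with 195 CPM without and 91.4 CPM with GZMB. CXCR3, a receptor of Th1 cells, stood at 154 CPM without and 59.7 CPM with GZMB in cycling cells, and at 33.3 and 39.6 CPM in matched cells. All 15 FOXP3 UMIs were in the 23 cells. FOXP3, the factor of regulatory T cells, was seen in 4 cycling cells, and 1 of them gave 46.7% of its UMIs.

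Naive and memory genes split by role. Of 22 measured, 6 were 2-fold or more higher and 7 lower. The higher ones belong to memory cells: S100A4 (4985 and 2061 CPM, 2.42-fold, 2.31 to 2.54), S100A10, ANXA2, VIM, LMNA and LGALS3, galectin 3, the largest at 379 and 117 CPM (3.23-fold, 2.69 to 3.88). Apart from IL7R, seen in 91.7% of matched cells, the lower ones mark naive cells or their homing. CCR7 held 65.1 and 155 CPM and was seen in 18.5% and 50.5% of cells, PECAM1, the adhesion molecule CD31, 24.9 and 86.2 CPM, and SATB1, a chromatin organiser, 44.0 and 119.6 CPM. CD7, LEF1 and IL7R were also among the 7. CCR7 and LEF1 together were seen in 10.8% (4.44 to 20.9%) of cycling and 29.5% (24.6 to 34.8%) of matched cells. Matched on GZMB as well, 4 of the 22 were past 2-fold higher and 3 lower, beside 5.30% and 1.72% of all genes, and S100A4 (0.94), IL7R (-0.95) and LEF1 (-0.80) were within 2-fold.

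Of the inhibitory receptors, PDCD1 (PD-1) and KLRG1 were past 2-fold and the other 7 measured were not. PDCD1 held 179.9 and 71.0 CPM (2.53-fold, 1.95 to 3.26) and was seen in 66.2% (53.4 to 77.4%) and 34.2% (29.0 to 39.6%) of cells, and KLRG1 held 74.6 and 27.6 CPM. Thinned to 2000 UMIs, the PDCD1 shares were 20% and 12.9%, and the unthinned share in B cell transcript cells was 5.75%. Matched on GZMB as well, none of the 9 was past 2-fold, beside 5.30% of all genes higher and 1.72% lower. The log2 ratio of PDCD1 was 0.63 in that comparison and 0.48 against all 7125 CD3+ cells. TIGIT, another inhibitory receptor, held 124 CPM in the cycling and 71.8 CPM in the depth-matched cells. Among 24 helper and regulatory genes 4 were past 2-fold higher (CXCR3, FOXP3, IL2RA and CHI3L2), 1 was lower (CXCR5) and the median log2 ratio was 0.16. Over all genes the shares were 6.2% higher and 2.01% lower. All 15 UMIs of CHI3L2, a chitinase-like protein, came from 1 cycling cell. Without the cells with B cell transcripts described below, CXCR3 (log2 ratio 0.89) and CXCR5 (-0.29) were within 2-fold. In that comparison 2 of the 24 were higher and 1 lower, beside 6.49% and 1.28% of all genes, and the median log2 ratio was 0.008. CXCR3 was seen in 38.5% (26.7 to 51.4%) and 21.5% (17.2 to 26.4%) of cells, and in 9.20% of B cell transcript cells. Thinned to 2000 UMIs, its shares were 13.8% and 4.92%. The helper receptors CCR6, CCR9 and CXCR5 were seen in 9.23, 6.15 and 4.62% of cycling and 19.1, 14.2 and 15.4% of matched cells, with overlapping intervals. Their shares in B cell transcript cells were 10.3, 3.45 and 54.0%. Thinned to 2000 UMIs, the shares were 0, 3.08 and 0% in cycling and 5.85, 4 and 7.08% in matched cells. The 3 helper shares rest on 6, 4 and 3 cycling cells.

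**Figure D4:**
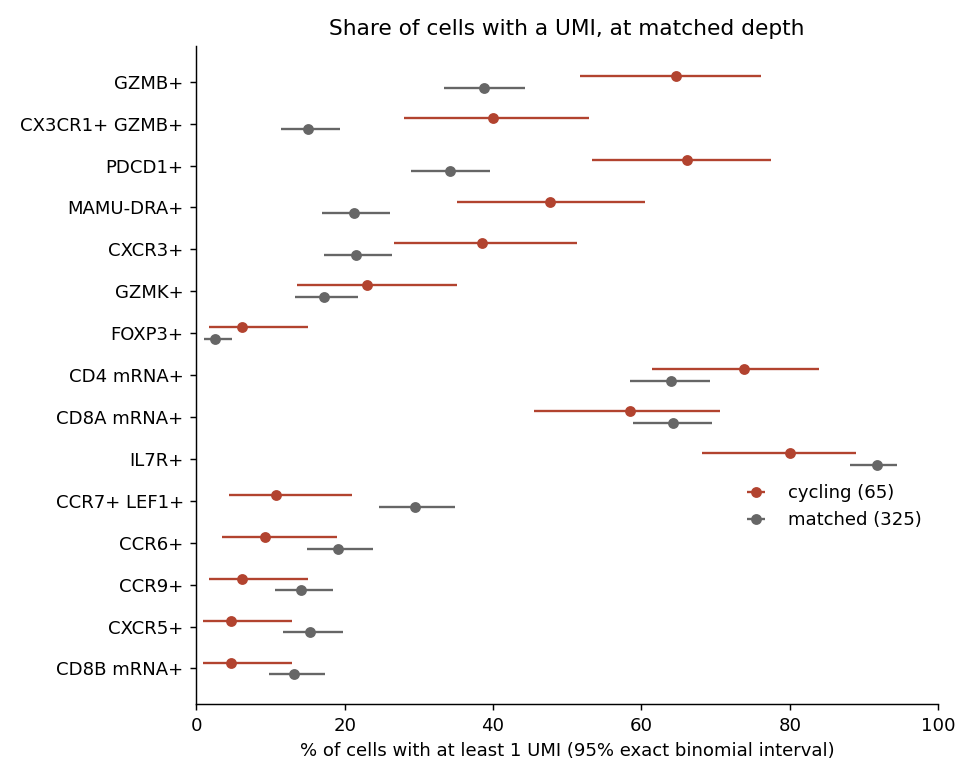
Share of cells with at least 1 UMI of a gene (percent, horizontal axis) in the 65 cycling cells (red) and 325 depth-matched cells (grey), with 95% exact binomial intervals for counting error. GZMB, PDCD1, CXCR3 and MAMU-DRA are more often seen in the cycling cells, and CCR7 with LEF1 less often. IL7R was seen in 80% of cycling and 91.7% of matched cells, with overlapping intervals.

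Class II genes gave opposite answers by sum and by cell. MAMU-DRA, an MHC class II chain that macaque T cells can carry after activation, summed to 232 CPM in the cycling and 646 CPM in the matched cells, yet was seen in 47.7% (35.1 to 60.5%) of cycling and 21.2% (16.9 to 26.1%) of matched cells, or 24.6% and 18.2% after thinning to 2000 UMIs. B cell transcripts moved with this result. The 10 B cell genes summed to 34.4 CPM in the cycling and 488 CPM in the matched cells, with 7 of 10 lower, MS4A1 (CD20) the most abundant in the matched cells at 138 CPM, and MS4A1, PAX5, BANK1, FCRLA and TCL1A at 0 in the cycling cells. At least 3 UMIs of B or plasma cell genes were held by 60 matched cells (18.5%), 6 cycling cells (9.23%) and 3.16% of all kept CD3+ cells, and those 60 cells held 97.2% of the matched MAMU-DRA UMIs. When such cells were left out of both groups and the matched cells were drawn anew, 59 cycling cells held 203 CPM and 295 matched cells 24.8 CPM (log2 ratio 2.61), seen in 49.2% and 8.14% of cells. Of those 87 cells without CD3, 98.9% held MAMU-DRA. CD74, the class II chaperone, went from a log2 ratio of -0.33 to 2.42, at 1496 and 271 CPM.

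Other activation genes were mixed, with 3 of 22 past 2-fold higher, 3 lower (MAMU-DRA, IRF4 and TNFRSF4) and a median log2 ratio of 0.16. Of all genes, 6.2% were past 2-fold higher and 2.01% lower. CD58, an adhesion partner of CD2, held 65.1 and 11.3 CPM (5.78-fold, 3.42 to 9.83) and was seen in 26 of 65 cycling and 26 of 325 matched cells. TBX21, the factor of Th1 and cytotoxic cells, held 40.2 and 11.6 CPM. IL2RA, the alpha chain of the interleukin-2 receptor, was past 2-fold through 1 cell with 61.5% of its UMIs, and was seen in 6.15% of cycling and 12.0% of matched cells. CD69, an early activation antigen, held 463 and 833 CPM, and without the cells with B cell transcripts its log2 ratio was 0.04. In that comparison 5 of 22 activation genes were 2-fold higher and none lower, beside 6.49% and 1.28% of all genes.

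The 10 genes with the largest ratios in the other direction outside the lists were of 2 kinds. IGHM, IGKC, CD83 and CD1C are genes of B and antigen-presenting cells, while EGR1, EGR2, NR4A1, FOSB, DUSP2 and NFKBID are early response genes of antigen receptor or stress signals. EGR1 held 1.91 and 318 CPM, and 98.4% of its matched UMIs came from cells with B cell transcripts. Without those cells the log2 ratio of EGR1 was -0.69 on 0 and 13 UMIs, NR4A1 -0.02, IGHM 0.78 on 4 and 2 UMIs, and CD83 0.90. DUSP2, a phosphatase of MAP kinases, was the exception that stayed past 2-fold, at 72.1 and 184 CPM (log2 ratio -1.24), seen in 39.0% and 57.6% of cells. FOSB stood at -0.88.

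Defining markers of several other cell types were at 0 in the cycling cells. CD14, LYZ, S100A8, S100A9, CSF1R, FCN1 and VCAN of monocytes were all at 0, as were NCAM1, NCR1, SH2D1B and KIT of NK cells. RAG1, RAG2, PTCRA, DNTT, CD1A, CD1E and SMPD3, which mark early thymocytes, were also at 0. A gene at 0 has a 95% Poisson upper limit of 7.06 CPM here, and the floor of 3 UMIs is 5.74 CPM. PPBP and PF4 of platelets and HBB and ALAS2 of red cells were at 0 too. Summed levels in cycling and matched cells were 1.91 and 12.4 CPM for monocyte genes, 172 and 157 CPM for NK genes (KLRF1 the most abundant, past 2-fold higher at 107 and 34.5 CPM), 78.5 and 163 CPM for plasma cell genes (XBP1, with JCHAIN and MZB1 at 0), 32.5 and 78.4 CPM for plasmacytoid dendritic cell genes (IRF7, with CLEC4C and IL3RA at 0) and 78.5 and 65.2 CPM for early thymocyte genes (TFDP2). At least 1 UMI of an NK gene was held by 41 of 65 cycling and 126 of 325 matched cells. HBA, alpha globin, stood apart: it was seen in 58.5% of cycling, 14.5% of matched and 11.1% of all 7125 CD3+ cells, at no more than 6 UMIs in a cycling cell and with 134 and 26.8 CPM in the matched comparison. Against all CD3+ cells its summed level was not higher (154 CPM), and 10 cells gave 75.7% of those UMIs. The share was 23.1% in CD3+ cells with 1 UMI of the 3 genes and 13.8% in the B cell transcript cells without CD3. 

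On the surface, the cycling cells carried the CD4 tag like the others and the CD8 tag at a lower median. The CD4 tag had a median of 494 UMIs in cycling cells (lowest 155, highest 1181) and 547 in matched cells, and 98.5% and 96.3% of cells lay above the 90th percentile of the B cell transcript cells without CD3 (193 UMIs). The CD8 tag had a median of 426 UMIs (lowest 56, quartiles 243 and 696, highest 3134) against 720 (quartiles 347 and 1465), and 63.1% (50.2 to 74.7%) and 76.0% (71.0 to 80.5%) of cells lay above the 90th percentile of those cells (330 UMIs). The 2 groups overlap widely on both axes, and in all CD3+ cells without the 3 genes the CD8 tag median was 338 at lower depth. Without the cells with B cell transcripts the matched median was 681. Both tags were above background in 41 cycling cells and the CD4 tag alone in 23. The CD8 level was alike in cycling cells with GZMB (median 428) and without (426). CD8A mRNA was seen in 58.5% of cycling and 64.3% of matched cells, CD4 mRNA in 73.8% and 64.0%, and CD8B mRNA, the chain of conventional CD8 cells, in 4.62% (0.962 to 12.9%) and 13.2% (9.74 to 17.4%).

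**Figure D5:**
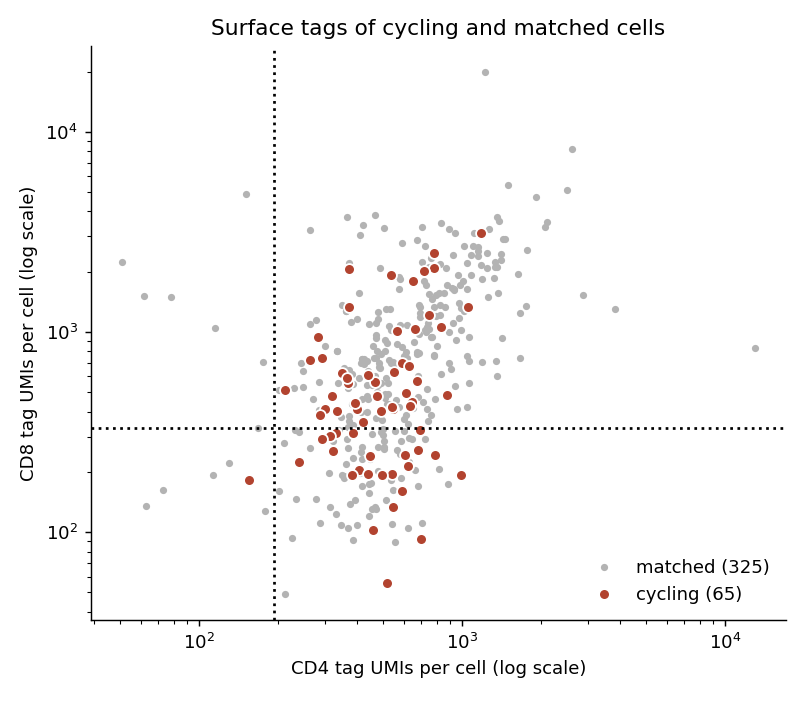
CD4 tag against CD8 tag UMIs per cell (both log scales) for 65 cycling (red) and 325 matched cells (grey), with dotted lines at the 90th percentile of 87 B cell transcript cells without CD3. Nearly all cycling cells lie right of the CD4 line, and 41 of them lie above the CD8 line as well.

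The T cell receptor segments were those of many cells. Of the cycling cells 27 held at least 3 UMIs of an alpha variable segment and 24 of a beta variable segment, with 14 different leading segments in each case. TRAV12-3 led in 6 cycling cells (22.2%) and in 16 of 133 matched cells (12.0%), and was the commonest in both groups. TRBV9 led in 5 of the 24 cells (20.8%), and TRBV5-1 was the commonest beta segment among matched cells at 18 of 137 (13.1%). By cells with at least 1 UMI, chosen after their values were seen, TRGV1, a gamma segment, was in 21.5% (12.3 to 33.5%) of cycling and 7.08% (4.54 to 10.4%) of matched cells, TRBV11-1 in 16.9% (8.76 to 28.3%) and 3.69% (1.92 to 6.36%), and TRAV19 in 24.6% (14.8 to 36.9%) and 15.4% (11.6 to 19.8%). Other segments went the other way. TRBV23-1 was in 1.54% and 8.31%, TRAV21 in 1.54% and 5.54%, TRAV10 in 1.54% and 6.15%, and TRBV5-1 in 6.15% and 10.5%. With 5′ counts alone and no paired receptor sequence, cells of 1 clone cannot be told from cells that share a segment.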

How the data were processed

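Blood DP T cells of 1 rhesus monkey were profiled with the 10x 5′ kit and 2 antibody tags. The submitters' processing notes name Cell Ranger 3.1.0, STAR 2.5.1b, Seurat 3.1.3 and build Mmul_10. The deposited values are UMI counts of 35432 genes and of the CD4 and CD8 tags in 7923 barcodes, with no normalization by the authors. Totals were 32297887 gene UMIs, 3533968 CD4 tag UMIs and 3868998 CD8 tag UMIs. Some genes without a deposited symbol (720) were named from a gene name table.

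Barcodes were kept (7601) when they had between 200 and 4000 genes and no more than 20% of their UMIs from mitochondrial genes. For each cycling cell the 5 unused CD3+ cells nearest in UMIs without the 3 genes were taken, deepest cell first. UMIs were summed per group and scaled to CPM. Genes with at least 10 UMIs in both groups together were compared as log2 of CPM plus 10, and a gene was past 2-fold at a log2 ratio of at least 1 or at most -1. Fold changes are plain CPM ratios, with exact 95% intervals from the binomial split of both counts. Shares have Clopper-Pearson intervals and CPM Poisson intervals, and all cover counting error only. There is 1 sample, so no p-value was computed. Python 3.11.15, scipy 1.17.1 and scanpy 1.11.5 were used. Scrublet called 0 cells doublets at its own threshold, which was taken as a failed call, so the 5% of cells with the highest scores (380) were left out as an alternative. Wherever cells were left out, the matched cells were drawn anew. The matching depth, the rule, the filters, the pseudocount and the scaling were also varied, and 2 alternatives (without the cell with most UMIs of the 3 genes, and matching on GZMB too) were added after seeing the data.

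The rule, the members and the gene lists were chosen with earlier results of these data known. Named genes are the 3 of the rule, list members with most UMIs or the largest ratios, genes of cell subsets, and outside the lists the 10 with the largest ratio in each direction among genes that reached 50 UMIs on the higher side. Some items are not reported here. Other list members named were chosen after their values were seen.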

Additional observations from a re-analysis of the deposited data

Results flagged for a closer look

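The filter on cells removed barcodes that meet the rule. Of 14 barcodes with over 4000 genes, 5 held at least 2 UMIs of MKI67, TOP2A and TYMS with CD3, or 35.7% (12.8 to 64.9%), against 0.855% of kept cells. The 14 had a median of 25380 UMIs, and 3 of the 5 held at least 3 UMIs of B or plasma cell genes. Of 305 barcodes with over 20% mitochondrial UMIs, 4 met the rule (1.31%, 0.358 to 3.32%). Both shares come from barcodes outside the comparison, and the part that doublets play in the first was not tested.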

How the results depend on the processing

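The count of cycling cells was 320 with a threshold of 1 UMI, 37 with 3 UMIs and 34 with at least 2 of the 3 genes. With 1 UMI, 96 of 10986 genes were 2-fold higher (0.874%) and 15 lower (0.137%). In that setting 37 of the cell cycle genes were higher, and the cytotoxic median was 0.57. Genes 2-fold lower made up 2.01% of those compared in the report. They numbered 395 of 8401 (4.70%) with 3 UMIs and 365 of 8422 (4.33%) with at least 2 genes. Without cells with B cell genes (matched cells drawn anew) they were 113 of 8841 (1.28%). Against all unmatched cells they were 88 of 12205 (0.721%), and after thinning to 2000 UMIs 409 of 6150 (6.65%). Thinning left 40 cell cycle genes past 2-fold among 45 measured, and a minimum of 50 UMIs left 34 among 37, with 378 of 5448 genes higher (6.94%). A pseudocount of 1 CPM gave 1215 genes higher and 942 lower, and 50 CPM gave 144 and 23, with 30 cell cycle genes and a cytotoxic median of 0.50. That median was 0.40 unmatched and 0.51 when cells were matched on GZMB too. Under the alternatives that change which cells count as cycling, the GZMB share and the CD8 tag median stayed within the interval and quartiles given in the report. Of 44 genes followed singly, 5 changed sign without cells with B cell genes, IGHM (0.78), CD83 (0.90), MAMU-DRA (2.61), CD74 (2.42) and CD69 (0.04), and 3 against unmatched cells, MAMU-DRA (0.43), HBA (-0.18) and CD74 (0.96). CD74, at -0.33 in the report, also changed sign with a threshold of 1 UMI and after thinning. A threshold of 1 UMI brought 16 of the 44 under 2-fold, unmatched cells 13, cells without B cell genes 12, a pseudocount of 50 CPM 9, matching on GZMB 6 and every other alternative at most 4. Leaving out the cell with most UMIs of the 3 genes moved none of the 44 across 2-fold. The cause of these shifts was not tested. No paired analysis was possible because there is 1 animal and 1 library of each kind. With 65 cells and 522539 UMIs, a gene at 0 has a 95% Poisson upper limit of 7.06 CPM, and the floor of 3 UMIs is 5.74 CPM.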
